A study of Mus musculus with 4 samples.

Results

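Arg1-positive tumour monocytes are here the 114 cells, of 32396 that passed the cell filter, that were chosen from the raw UMI counts of 4 single-cell libraries of mouse MC38 tumours. A UMI is 1 tagged RNA molecule as counted. A cell had to hold at least 5 UMIs of the myeloid lysozyme Lyz2 and at least 3 UMIs of Arg1. It could hold at most 1 UMI of the interferon-induced gene Rsad2, at most 1 of Cd209a and at most 1 of Xcr1 plus Clec9a, and fewer than 10 of C1qa, C1qb and C1qc together. Cells with any UMI of Ace, Cd3e, Cd3d, Ncr1 or Cd79a, or with both Ccr7 and Fscn1, were left out, so that macrophages rich in C1q, dendritic cells, non-classical monocytes and lymphocytes were excluded. The comparison cells were the 2714 cells that passed every other criterion and had no Arg1 UMI, called Arg1-negative monocytes below. A further 182 cells with 1 to 2 Arg1 UMIs belonged to neither population.

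MC38 is a mouse colon adenocarcinoma line, and 100000 of its cells were injected under the skin of mice aged 8 weeks. The tumours, taken on day 16, were broken up with collagenase and cryopreserved, and after thawing CD45-positive cells, that is blood-derived immune cells, were sorted and read in 4 libraries. The groups were WT, with 2 libraries, and cKO, with 2 libraries from mice with a conditional knockout of Ufl1, which encodes the E3 ligase for UFM1, a small ubiquitin-like modifier. The series title places the loss of UFL1 in T cells. Neither group had any other treatment per the labels, and the sources used here give neither the Cre driver, the exons removed nor the strain, so the monocytes described here are not stated to carry the deletion. The labels do not say that the libraries came from separate animals, so p-values measure the spread between these libraries only.

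Arg1 encodes arginase 1 and lies on the minus strand at chr10:24915221-24927484 in GRCm38 (GENCODE M21, matched by gene ID). Arginase 1 splits arginine into ornithine and urea, and ornithine feeds the making of polyamines and proline. Monocytes enter tumours from blood through the chemokine receptor CCR2 and turn into macrophages there, losing monocyte transcripts such as Ly6c2 and gaining macrophage ones. In mice, macrophages switch on Arg1 under interleukin 4, lactate or low oxygen, and arginase-producing myeloid cells can deplete the arginine that T cells need. Low oxygen acts through hypoxia-inducible factors, which switch on glucose transport, glycolysis and Vegfa by binding short DNA motifs.

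The libraries held 7352 to 9466 barcodes with 64141857 to 79747752 UMIs. The barcode sequences of WT replicate 1 and cKO replicate 2 overlapped at 479 barcodes, against 85 to 104 for each of the other 5 pairs of libraries. In 398 of the 479, the deeper copy had over 10 times the UMIs of the shallower. Among the Arg1-positive cells, 5 carried a barcode found in a second library, namely 2 in WT replicate 1, 1 in cKO replicate 1 and 2 in cKO replicate 2. The counts of genes at least 2-fold apart, the shares and the numbers of calls are given with and without such cells, and single ratios with them included. cKO replicate 2 also stood apart in sex-linked transcripts: 10 of its 12 Arg1-positive cells held Xist, a transcript of the inactive X chromosome, and no Arg1-positive cell of the other libraries did.

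Arg1-positive monocytes were rare and unevenly spread over the libraries, and the genotypes differed by less than the spread between libraries. In WT replicate 1, WT replicate 2, cKO replicate 1 and cKO replicate 2, the order used for all values below, there were 39, 14, 49 and 12 of them. They made up 4.76% (95% Wilson interval 3.50% to 6.44%), 1.51% (0.90% to 2.51%), 7.52% (5.73% to 9.80%) and 1.97% (1.13% to 3.41%) of the 819, 929, 652 and 610 monocytes, a count that includes the cells with 1 to 2 Arg1 UMIs. These intervals cover counting error only. Both libraries numbered 1 lay above both numbered 2, and each genotype held a high and a low library. The mean share was 3.13% ± 2.30 (SD, n = 2) in WT and 4.74% ± 3.92 (SD, n = 2) in cKO, a difference of 1.61 percentage points (exact two-sided permutation p = 0.667, where the smallest p possible is 0.333). Without the barcodes shared between libraries the difference was 1.49 points. With 1 library left out it was -0.0206 points (WT replicate 2) or -1.17 points (cKO replicate 1), so its direction rested on those libraries, and 3.23 or 4.38 points for the other two. As shares of all cells the members were 0.537%, 0.15%, 0.630% and 0.15%, with means of 0.343% ± 0.274 in WT and 0.390% ± 0.340 in cKO (SD, n = 2 each, exact permutation p = 0.667).

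**Figure D1:**
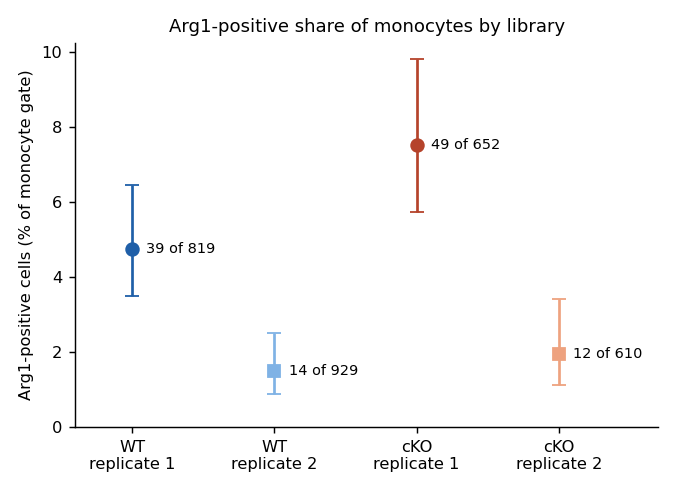
Share of Arg1-positive cells among monocytes in each library, in percent, with 95% Wilson intervals as bars and the number of cells beside each point. WT replicate 1 and cKO replicate 1 sit at 4.76% and 7.52%, above WT replicate 2 and cKO replicate 2 at 1.51% and 1.97%.

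The order of the libraries was the same at equal depth. When every cell was thinned to 3000 UMIs, the share of monocytes with any Arg1 UMI was 7.17%, 2.13%, 8.97% and 3.35%, in the same order of libraries. Some Arg1 UMIs were also found in cells that should lack it, and their source was not tested. T cells, taken as cells with at least 2 UMIs of Cd3e plus Cd3d and fewer than 5 of Lyz2, held 3 or more Arg1 UMIs in 0.384%, 0.0596%, 0.225% and 0.270%, at median depths of 5793 to 6415 UMIs against 8295 to 9888.5 for the monocytes. The shares in monocytes were above these in every library.

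The threshold on Arg1 cut through a range of values. The members held a median of 6, 4.5, 8 and 9.5 Arg1 UMIs, and at most 90, 34, 50 and 31. Just inside the threshold, 9, 5, 7 and 3 cells had exactly 3, and just outside it 23, 5, 14 and 4 cells had 2. Summed over libraries, cells at 3 Arg1 UMIs had 317 CPM of Bnip3 (CPM is a gene's share of the summed UMIs, scaled to the same total in every sum), cells at 2 had 137 and cells at 0 had 57.4. For Ero1l the same values were 332, 109 and 74.0 CPM, and for C3ar1 they were 266, 211 and 86.2 CPM. The step from 2 to 3 UMIs did not hold in every library: Bnip3 went from 181 to 129 CPM in WT replicate 2, Ero1l from 181 to 98.1 CPM in cKO replicate 1, and C3ar1 from 228 to 194 CPM in WT replicate 1 and from 322 to 185 CPM in cKO replicate 2. Spp1, a marker named with the label, went the other way. It was at 2455 CPM at 2 Arg1 UMIs, 1378 at 3, 691 at 6 or more and 291 at 0. From 2 to 3 UMIs it fell in every library, from 3891, 814, 659 and 2634 to 2661, 493, 600 and 1031 CPM. At 6 or more UMIs it was at 527, 747, 505 and 1706 CPM. That was below its level at 3 in both libraries numbered 1 and above it in both numbered 2. Of the 656 filtered cells with enough Lyz2 and Arg1, 368 exceeded the C1q limit and 288 the Rsad2 limit, so Arg1 itself was spread over more myeloid cells than the members.

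The label tumour monocyte was checked against marker genes. Ly6c2, a surface protein of classical monocytes, was at 3962, 2751, 4089 and 2860 CPM in the Arg1-positive cells and at 2390, 2702, 2918 and 3765 CPM in the Arg1-negative ones. Ccr2 was at 700, 550, 498 and 336 CPM against 676, 404, 517 and 530 CPM. The 7 monocyte markers, of which the rule sets Lyz2, summed to 19506, 14964, 19496 and 17546 CPM in the members, below the 22154, 21922, 21806 and 25096 CPM of the Arg1-negative cells in every library. Lyz2 held the most UMIs of this list, at 10333, 7732, 10438 and 9338 CPM in the members against 14035, 13004, 13157 and 14569 CPM. The sum therefore does not show the direction of the other genes of the list. The 7 macrophage markers, of which the rule caps C1qa, C1qb and C1qc and Apoe holds the most UMIs, summed to 4314, 3142, 4189 and 5391 CPM, above the 2575, 2301, 2569 and 1734 CPM of the Arg1-negative cells in every library. All 7 genes of each list had UMIs in the members, so the cells carried transcripts of both, and they are called monocytes here after the rule. Of the T cell markers, 4 of 10 were at 0, Cd3e and Cd3d among them by the rule, and the list summed to 0 to 14.5 CPM in the members against 11.3 to 15.2 CPM in Arg1-negative cells. All 6 mast cell and basophil markers and all 4 eosinophil markers were at 0. The 8 NK cell markers summed to 29.2 to 126 CPM, below the Arg1-negative cells in every library. The 6 type 1 and 7 type 2 dendritic cell markers (212 to 384 and 94.1 to 321 CPM) had mixed directions. The 5 plasmacytoid dendritic cell markers summed to 971, 1079, 891 and 883 CPM against 683, 673, 648 and 838 CPM. Of these, 3 were at 0, and Bst2, also in the type I interferon list, held the most UMIs. Of the tumour and epithelial markers 5 of 6 were at 0, Epcam among them, and the list, with UMIs of Krt18 alone, summed to 0 to 29.2 CPM. Of 12 neutrophil markers 7 were at 0 in the members, including S100a9, Ly6g and Camp, and the list summed to 22.8, 43.4, 42.1 and 80.3 CPM. In the Arg1-negative cells it summed to 92.3, 590, 86.4 and 1355 CPM, high in both libraries numbered 2.

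Of the genes named with the label, Arg1 was used by the rule and Spp1 alone of the others was higher in the Arg1-positive cells of every library. Spp1, the secreted phosphoprotein osteopontin, was at 1353, 536, 458 and 1466 CPM in Arg1-positive cells and at 529, 192, 273 and 178 CPM in Arg1-negative ones. All ratios below are log2 ratios of CPM with 1 CPM added, taken within each library, and for Spp1 the mean was 1.65 ± 0.97 (SD, n = 4 libraries). Thbs1, the matrix protein thrombospondin 1, was at 1969, 246, 643 and 511 CPM against 914, 598, 590 and 485 CPM, a mean log2 ratio of 0.01 ± 0.98 (SD, n = 4) that was -0.36 without WT replicate 1. Cxcl3, a neutrophil-attracting chemokine, had UMIs in 6 of the 114 cells, and 1 cell held 94 of the 95 in WT replicate 1. Ptgs2, the prostaglandin-making cyclooxygenase 2, was at 279, 282, 102 and 489 CPM against 261, 123, 154 and 153 CPM (0.59 ± 1.03, SD, n = 4), lower in cKO replicate 1 alone. Thbs1, Cxcl3 and Ptgs2 were thus not higher in the members of every library. Because the cells were chosen by a measured value, no test is given between Arg1-positive and Arg1-negative cells, and these ratios are a description.

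At least 2-fold higher in the Arg1-positive cells of all 4 libraries were 31 genes, 0.202% of 15377. At least 2-fold lower were 164 genes, 1.07%, of which 153 had no UMI in the members of at least 1 library and 11 reached 50 CPM in either population. Since a gene had to pass in every library, leaving a library out raises the count: with 1 library left out, in the usual order, 64, 46, 68 and 49 genes were higher, and 122 were higher with both replicates 2 left out. For the lower genes these counts were 367, 241, 497, 268 and 435. Without the shared barcodes 32 genes were higher, 27 of them among the 31, and 188 lower. Other choices of cells kept fewer of the 31, namely 18 with 5 or more Arg1 UMIs, 19 among cells with 5000 to 15000 UMIs and 15 among cells with no C1q UMI. Few cells carried many of these genes: in 15 of the 31, 1 cell held at least 50% of a library's UMIs.

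The 15 genes with the largest mean ratios, among genes at 50 CPM or more in either population, held 5 of the hypoxia and glycolysis list and, besides, Vegfa and Hilpda, which low oxygen also induces. Bnip3, a mitochondrial protein of hypoxic cells that promotes the removal of mitochondria, was at 215, 253, 254 and 482 CPM in Arg1-positive cells and at 65.9, 41.8, 76.2 and 51.3 CPM in Arg1-negative ones. Its mean log2 ratio was 2.30 ± 0.73 (SD, n = 4), it had UMIs in 68 of the 114 members, and the library sums of the 2 populations did not overlap. Ero1l, an oxidase that helps proteins fold in the endoplasmic reticulum, was at 286, 210, 398 and 503 CPM against 80.4, 52.3, 109 and 63.0 CPM (2.16 ± 0.55). Ankrd37, a hypoxia-induced ankyrin repeat protein, was at 124, 145, 107 and 241 CPM against 36.0, 23.7, 49.8 and 24.5 CPM (2.16 ± 0.94). Vegfa, the vascular growth factor, was at 177, 319, 319 and 430 CPM against 89.5, 60.3, 92.5 and 36.9 CPM (2.16 ± 1.07). For each of these, every Arg1-positive sum lay above every Arg1-negative one. The genes were chosen for large ratios of the same direction in all 4 libraries, which largely sets this separation. Its share over all genes was not counted. Hilpda, a hypoxia-induced inhibitor of fat breakdown, followed at 2.02 ± 1.36, and Egln3, an oxygen-sensing hydroxylase, at 2.01 ± 1.04 with UMIs in 31 cells. Mif, a cytokine and common hypoxia target, was at 973, 1564, 1327 and 2021 CPM against 417, 362, 458 and 322 CPM (1.88 ± 0.63), and was present in 111 of the 114 cells.

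**Figure D2:**
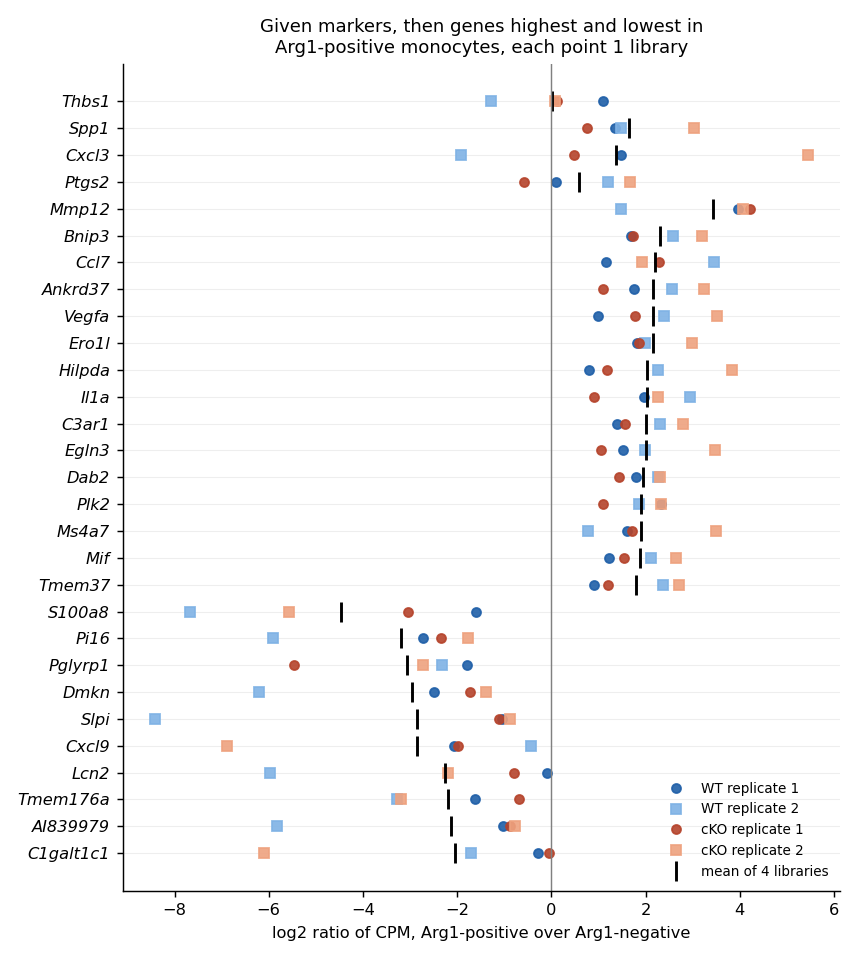
Log2 ratio of CPM (1 CPM added), Arg1-positive over Arg1-negative monocytes, in each library for 4 of the named markers, the 15 genes with the largest and the 10 with the lowest mean ratio. Points are libraries and black ticks their mean. Bnip3, Ero1l and Mif lie to the right of 0 in all 4 libraries, and the points of Thbs1, Cxcl3 and Ptgs2 fall on both sides of 0.

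The other 8 of the 15 genes came from no single list. C3ar1, the receptor of complement fragment C3a, was at 309, 376, 263 and 452 CPM against 118, 75.8, 88.0 and 64.3 CPM (2.01 ± 0.65, SD, n = 4), with UMIs in 89 of 114 members. Dab2, an endocytic adaptor, had a mean log2 ratio of 1.95 ± 0.41 with UMIs in 78 members, and Plk2, a stress-induced kinase, 1.90 ± 0.59 with 44. Ms4a7, a membrane protein of macrophages, was at 1.90 ± 1.14, and Tmem37 at 1.8 ± 0.88. In WT replicate 1, 1 cell held 46 of the 73 UMIs of Plk2, and in cKO replicate 2, 1 cell held 52 of the 89 of Ms4a7. The other members of the group had UMIs in fewer cells. Mmp12, the elastase of macrophages, had the largest mean ratio, 3.44 ± 1.30, but had UMIs in 14 of 114 cells, and 1 cell held 66 of the 80 UMIs of WT replicate 1. Its mean was 1.88 with 5 or more Arg1 UMIs required and 2.14 among cells with 5000 to 15000 UMIs. Ccl7, a monocyte-attracting chemokine (2.20 ± 0.96), had UMIs in 32 cells, and 1 cell held 81 of the 97 UMIs of WT replicate 2. Il1a, the cytokine interleukin 1 alpha (2.02 ± 0.84), had UMIs in 22 cells, with 1 in cKO replicate 2 holding all 8 there.

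The genes with the lowest ratios included several near 0 in the members. S100a8, a calcium-binding protein of neutrophils and classical monocytes, had 2 UMIs in all 114 cells, and was at 9.76, 202, 7.28 and 392 CPM in Arg1-negative cells, highest in both libraries numbered 2, as was the neutrophil list to which it belongs. The part of neutrophil RNA in this difference was not tested. With every cell that held an S100a9 UMI left out, 155 genes were at least 2-fold lower. Slpi, a secreted protease inhibitor, was at 215, 0, 149 and 197 CPM against 448, 338, 322 and 365 CPM, lower in every library. Cxcl9, a chemokine induced by interferon gamma, was at 25.3, 65.2, 40.3 and 0 CPM against 110, 88.8, 163 and 117 CPM. Tmem176a was at 17.7, 7.24, 31.6 and 7.30 CPM against 56.7, 78.6, 51.6 and 74.5 CPM. Pi16, Pglyrp1, Dmkn, Lcn2, AI839979 and C1galt1c1 completed the lowest 10, each with no UMI in the members of at least 1 library, where 0 UMIs of the 137071 to 570329 summed per library leave the ratio set by the added 1 CPM.

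For gene lists, the counts below are of genes whose mean CPM over both populations reached 20. Of 5090 such genes, 510 (10.0%) were higher and 955 (18.8%) lower in the Arg1-positive cells of all 4 libraries, and 23 (0.452%) and 13 (0.255%) were so by at least 2-fold. The median of the mean log2 ratios over these genes was -0.11.

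Hypoxia and glycolysis genes were higher in the Arg1-positive cells as a group. Of 21 measured, 19 were higher in all 4 libraries and none lower in all 4, 7 were higher by at least 2-fold in each, and the median log2 ratio was 1.07. The ratios ran from 2.30 for Bnip3 down to 0.31 ± 0.50 for the phosphofructokinase Pfkp, and Hk1 and Pfkp were the 2 with mixed directions, both lower in cKO replicate 1. The glucose transporter Slc2a1 was at 223, 391, 300 and 649 CPM against 126, 94.2, 163 and 110 CPM (1.57 ± 0.86, SD, n = 4), and Ndrg1, a hypoxia-induced stress protein, was at 1.6 ± 1.10. The glycolytic enzymes Tpi1 (1.64 ± 0.56), Pgk1 (1.25 ± 0.31), Pgam1 (1.14 ± 0.48), Ldha (1.06 ± 0.39), Gapdh (0.98 ± 0.23), Eno1 (0.93 ± 0.38) and Pkm (0.70 ± 0.17) were all higher in each library. Gapdh, Eno1 and Ldha have near-identical pseudogenes, so their counts may be split. The count stayed at 15 to 21 under every alternative tried, the lowest being 15 among cells with no C1q UMI. The Arg1-positive cells had more UMIs per cell in 3 of 4 libraries (medians of 10220, 9712, 11326 and 9588.5 against 8476, 8232, 9395 and 9867), and with both populations held to 5000 to 15000 UMIs the count was 18. Their median mitochondrial share of UMIs was 0.921%, 0.935%, 0.894% and 0.527% against 1.23%, 1.20%, 1.06% and 1.18%, and its part in the ratios was not tested. The 26 genes of oxidative phosphorylation had a median log2 ratio of -0.11, that of all genes, with 0 higher and 3 lower in every library, from 0.20 ± 0.16 for Sdhd to -0.58 ± 0.44 for Ndufa4.

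**Figure D3:**
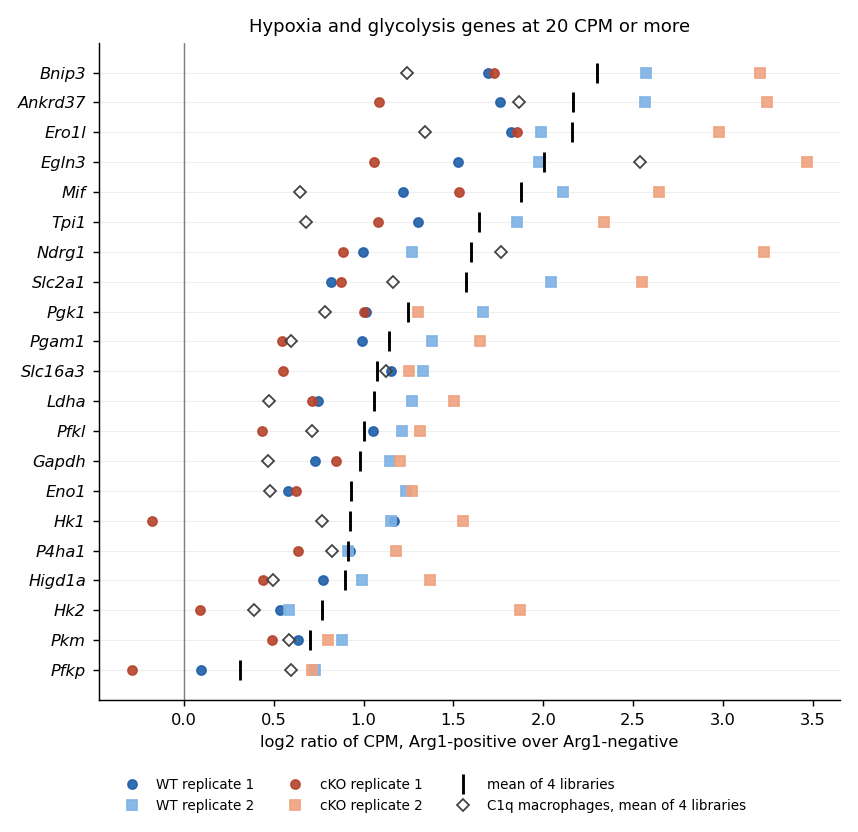
Log2 ratio of CPM, Arg1-positive over Arg1-negative monocytes, for the 21 hypoxia and glycolysis genes at 20 CPM or more, with 1 point per library, a tick for the mean and an open diamond for the mean of the same ratio in C1q macrophages. All points except those of Hk1 and Pfkp in cKO replicate 1 lie above 0, and cKO replicate 2 has the largest ratio for most genes.

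With each cell thinned to 3000 UMIs, which left out 2 shallower Arg1-positive and 238 Arg1-negative cells, the same contrasts could be read as shares of cells with a UMI. Bnip3 was found in 31.6%, 38.5%, 32.7% and 41.7% of Arg1-positive and in 11.8%, 9.54%, 13.3% and 9.50% of Arg1-negative cells, and before thinning in 52.6%, 69.2%, 57.1% and 83.3% against 23.1%, 17.8%, 28.4% and 22.8%. C3ar1 was found in 52.6%, 69.2%, 46.9% and 83.3% against 22.6%, 13.9%, 14.7% and 13.3% of the thinned cells. These differences were present at equal depth in every library, whereas Ero1l was found in 7.69% of the thinned Arg1-positive cells of WT replicate 2 against 12.6% of the Arg1-negative ones, and was higher in the other 3 libraries. Haptoglobin was found in 10.5%, 23.1%, 28.6% and 25.0% of thinned Arg1-positive cells against 44.0%, 54.4%, 45.9% and 69.3% of Arg1-negative ones, lower in each library.

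The promoters of 3 of these genes are shown because hypoxia-inducible factors bind the core motifs ACGTG and GCGTG. They are the 250 bases before the annotated start in RefSeq GRCm38.p6, on the gene's strand and 5′ to 3′, with matches to ACGTG or GCGTG, or to their complements CACGT and CACGC, in capitals. The matches were counted on both strands, and matches on opposite strands can share bases. The Bnip3 window (minus strand, chr7:138909507-138909756) holds 5 matches, the Ankrd37 window (minus strand, chr8:45999851-46000100) 4 and the Egln3 window (minus strand, chr12:54203875-54204124) 1.
Bnip3: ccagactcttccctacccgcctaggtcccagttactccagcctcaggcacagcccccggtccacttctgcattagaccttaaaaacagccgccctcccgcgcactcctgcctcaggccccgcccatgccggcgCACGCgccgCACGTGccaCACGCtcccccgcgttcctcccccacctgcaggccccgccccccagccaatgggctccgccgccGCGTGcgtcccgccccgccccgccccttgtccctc
Ankrd37: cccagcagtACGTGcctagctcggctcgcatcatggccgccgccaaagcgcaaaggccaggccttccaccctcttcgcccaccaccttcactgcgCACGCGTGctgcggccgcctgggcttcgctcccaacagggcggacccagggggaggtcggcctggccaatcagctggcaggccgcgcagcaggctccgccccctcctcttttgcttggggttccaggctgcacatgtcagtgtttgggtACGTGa
Egln3: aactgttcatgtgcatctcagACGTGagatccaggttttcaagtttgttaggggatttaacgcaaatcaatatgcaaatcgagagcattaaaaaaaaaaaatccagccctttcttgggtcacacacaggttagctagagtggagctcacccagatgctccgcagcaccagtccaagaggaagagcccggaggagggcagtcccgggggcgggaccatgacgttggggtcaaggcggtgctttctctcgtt
Of the 31 genes at least 2-fold higher in every library, 23 matched the promoter table and 15 of those, 65.2%, had a match in at least 1 window. Among the 5090 genes at 20 CPM, 4122 matched the table and 64.2% had one, and over all 27025 genes of the table the share was 41.5%. The share of the higher genes with a match was thus near that of other expressed genes. Counted by window it was lower, 44.1% of 34 windows against 57.9% of 5283. Of the 15 genes with the largest mean ratios, 13 matched the table and 7 of those, 53.8%, had a match. The 3 genes shown are among these 7, and the window of Mif held 0 matches. A match is a description of letters and not a binding site.

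Genes of lipid-laden and lysosome-rich macrophages were also mostly higher. Of 12 measured, 9 were higher and none lower in all 4 libraries, with a median log2 ratio of 0.86. The lysosomal membrane protein Cd63 was at 117, 72.4, 47.3 and 58.4 CPM against 29.3, 25.5, 23.0 and 15.3 CPM (1.57 ± 0.43, SD, n = 4). The protease Ctsl (1.33 ± 0.43), the lipid carrier Apoe (1.14 ± 0.85), the lipid-sensing receptor Trem2 (1.11 ± 0.34) and the lipid droplet coat Plin2 (0.74 ± 0.47) were higher in each library. Fabp5, a fatty acid binding protein, was lowest at -0.56 ± 1.01. With 5 or more Arg1 UMIs required, 5 of the 12 were higher in all 4 libraries, and without the shared barcodes 8 were.

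Classical monocyte genes were mostly lower, while Ly6c2 (0.21 ± 0.50) and Ccr2 (-0.05 ± 0.46) had mixed directions. In cKO replicate 2 both were lower in the members, and at 3000 UMIs a cell Ccr2 was found there in 25.0% of the 12 members against 74.7% of Arg1-negative cells. Of 17 measured, 10 were lower and 1 higher in all 4 libraries, with a median log2 ratio of -0.41. Hp, the haemoglobin carrier haptoglobin, was at 60.8, 159, 137 and 219 CPM against 430, 552, 424 and 788 CPM (-2.01 ± 0.53, SD, n = 4), below its Arg1-negative level in every library. Gsr (-1.36 ± 0.62), a glutathione reductase, Ifitm6 (-1.32 ± 0.20), Vcan (-1.12 ± 0.18), a matrix proteoglycan, and Chil3 (-0.97 ± 0.69), a chitinase-like protein, were lower in each library. Fcgr1, the high-affinity immunoglobulin G receptor, was the 1 that was higher, at 0.65 ± 0.23.

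Of 16 macrophage maturation genes measured, 8 were higher and none lower in all 4 libraries, with a median of 0.47. They included the transcription factor Maf (0.88 ± 0.26) and the lysosomal protein Cd68 (0.52 ± 0.28). Apoe and Cd63, also counted in the lipid-associated list, were among the 8. The platelet factor Pf4 had the largest mean of this list, 2.13 ± 3.72, with UMIs in 7 cells, and Selenop the lowest, -0.38 ± 0.41. The rule itself capped C1q, so a macrophage transcript was measured here in cells selected to be low in C1q.

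Chemokines and inflammatory mediators were partly higher. Of 16 measured, 7 were higher and none lower in all 4 libraries, with a median of 0.56. Cxcl2, which draws neutrophils, was at 3462, 4670, 2725 and 4946 CPM against 2133, 973, 1517 and 1309 CPM (1.43 ± 0.78, SD, n = 4). Ccl2, the ligand of CCR2, was at 1.13 ± 0.76 and Ccl3 at 0.63 ± 0.50. Il1b was at 0.02 ± 0.22 and the cytokine Osm lowest at -0.36 ± 0.78. Without the shared barcodes 5 of the 16 were higher in every library.

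Matrix, clotting and growth factor genes had 7 of 14 higher and 2 lower in all 4 libraries, with a median of 0.30. The 2 lower ones, Vcan among them, were also counted in the classical monocyte list. Besides Mmp12, Vegfa and Spp1, the higher ones included Ecm1, a secreted matrix protein, at 603, 623, 314 and 708 CPM against 267, 109, 163 and 124 CPM (1.78 ± 0.84, SD, n = 4), and Mmp14, a membrane-bound collagenase (1.11 ± 0.45). The growth factor Areg was lowest, -2.21 ± 2.67, with UMIs in 5 cells.

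Of 8 arginine and polyamine genes other than Arg1, 1 was higher in all 4 libraries, the ornithine decarboxylase Odc1, at 114, 275, 116 and 124 CPM against 89.0, 88.6, 93.5 and 89.5 CPM (0.69 ± 0.63, SD, n = 4). Sat1, which acetylates polyamines, was lowest at -0.25 ± 0.70, and Arg2, the mitochondrial arginase, was at -0.00 ± 0.78. Nos2, which competes for arginine, had no UMI in the members of 3 libraries and 24.5 CPM in cKO replicate 1.

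Interferon and antigen presentation genes showed no common direction. Of 22 type I interferon response genes 7 were higher and 1 lower in all 4 libraries (median 0.29), from 0.78 ± 0.61 for Phf11d to -0.49 ± 0.74 for Cmpk2, in cells that the rule had capped for Rsad2 in both populations. Of 15 interferon gamma response genes 0 were higher and 4 lower (median -0.31), from 0.22 ± 0.69 for Ly6i to -2.85 ± 2.80 for Cxcl9, and Irf1, a transcription factor induced by interferon gamma, was at -0.94 ± 0.55. Of 7 MHC class II genes none was higher or lower in all 4 libraries. H2-Ab1 was at 996, 3113, 2307 and 978 CPM against 1588, 1280, 1703 and 916 CPM, higher in 3 libraries and lower in WT replicate 1. In cKO replicate 2, 1 cell held 104 of its 134 UMIs. There the top cell also held 131 of the 153 UMIs of H2-Aa and 113 of the 122 of H2-Eb1.

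Myeloid inhibitory genes had 3 of 14 higher and 1 lower in all 4 libraries. Cd274, the ligand of PD-1 (PD-L1), was at 50.7, 101, 59.6 and 80.3 CPM against 25.6, 27.1, 43.9 and 27.8 CPM (1.19 ± 0.63, SD, n = 4). It had UMIs in 33 of the 114 cells. A single cell held 11 of its 20 UMIs in WT replicate 1 and 9 of 14 in WT replicate 2. In cKO replicate 1 the top cell held 6 of 34, and in cKO replicate 2 it held 9 of 11. Lilr4b was at 0.91 ± 0.41. Trem1 was lowest at -0.49 ± 0.49. Iron and oxidative stress genes had 3 of 12 higher and 1 lower, led by Hmox1, the haem-degrading oxygenase, at 887, 1137, 615 and 2269 CPM against 484, 300, 411 and 270 CPM (1.61 ± 1.13), with Slc7a11, a cystine transporter, lowest at -1.64 ± 2.36. Of 20 immediate early and AP-1 genes, which tissue digestion also induces, 5 were higher and 1 lower, from 0.87 ± 0.95 for Bhlhe40 to -0.68 ± 0.28 for Fosl2.

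The other lists had at most 2 members higher and at most 1 lower in every library. Heat shock genes (2 and 0 of 10) ran from 0.42 ± 0.50 for Hspa1a to -2.04 ± 3.46 for Hspb1, and ER stress genes (0 and 0 of 11) from 0.37 ± 0.56 for Dnajb9 to -0.64 ± 0.56 for Herpud1. The UFM1 conjugation genes (0 and 1 of 7) ran from -0.07 ± 1.12 for Odr4 to -0.51 ± 0.78 for Ddrgk1. The cell cycle genes (1 and 1 of 4) ran from 0.82 ± 0.41 for Tubb5 to -0.48 ± 0.25 for Hmgb2, and no member held 2 or more UMIs of Mki67 plus Top2a.

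The same split by Arg1 was made among macrophages, taken as cells that passed the other criteria but held 10 or more C1q UMIs. Of these, 56, 11, 70 and 24 cells had 3 or more Arg1 UMIs, and they were set against macrophages with none. Of the 31 genes higher in the monocytes, 18 were higher in the macrophages of all 4 libraries and 1 was by at least 2-fold, with a median log2 ratio of 0.67, against 1.69 in the monocytes, where the genes were chosen. Over the 5090 genes at 20 CPM, 10.6% were higher in all 4 libraries and 0.118% by at least 2-fold. Of the 21 hypoxia and glycolysis genes, 20 were higher in the macrophages of every library, with a median of 0.71. The lists parted elsewhere: matrix, clotting and growth factor genes had a median of 1.29 in macrophages against 0.30 in monocytes, and Thbs1 was higher in the macrophages of every library (1.68 on average). Classical monocyte genes had a median of 0.29 against -0.41, and macrophage maturation genes -0.17 against 0.47. Arg1-positive macrophages were deeper than Arg1-negative ones in 3 of 4 libraries, with medians of 11335.5, 5734, 10613 and 9162 UMIs against 7038, 5856, 5364 and 6068.5, and the part of this depth was not tested. Monocytes with 1 to 2 Arg1 UMIs, set against the same Arg1-negative sums on which the 31 genes were chosen, had a median of 0.79 over these and of -0.04 over the 5090 genes.

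**Figure D4:**
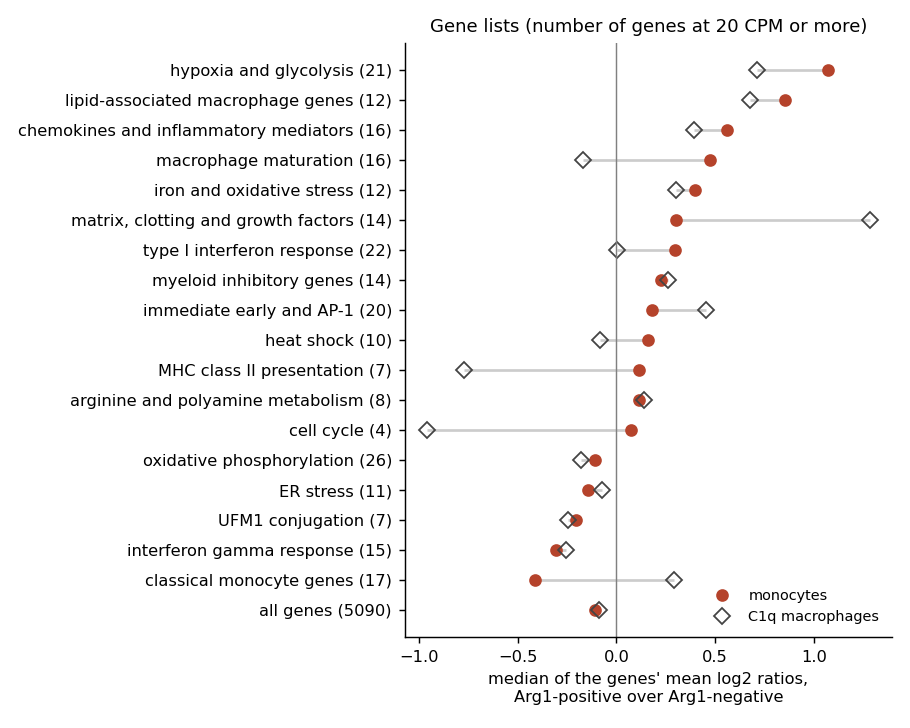
Median over each list of the genes' mean log2 ratio of CPM, Arg1-positive over Arg1-negative, in monocytes (filled circles) and in C1q macrophages (open diamonds), with the number of genes at 20 CPM or more in brackets. Hypoxia and glycolysis genes lie at 1.07 and 0.71, and classical monocyte genes at -0.41 and 0.29.

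Genotype was compared within the Arg1-positive cells on the UMIs summed per library, 394546, 138128, 570329 and 137071 in all. The targeted gene, Ufl1, had 6, 5, 7 and 2 UMIs there and 109, 117, 84 and 106 in Arg1-negative cells, too few in the members to be tested. In Arg1-negative cells its log2 fold change, cKO over WT, was 0.03 ± 0.18 (SE). Of 3547 genes tested in the members, edgeR's quasi-likelihood test called 0 (0.00%) at a Benjamini-Hochberg adjusted p of 0.05, with 125 (3.52%) at an unadjusted p under 0.05, and DESeq2 called 0, with 26 at an unadjusted p under 0.05. Without a filter on low counts 9 genes passed. With 1 library left out, again in order, there were 2, 17, 27 and 14 calls, each with 1 library in a group whose spread is assumed to be that of the other group, and without the shared barcodes 0.

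The genes with the smallest p in each direction are therefore given as values that did not pass. Gadd45g, a stress-induced growth arrest gene, was at 65.9, 174, 484 and 401 CPM, both cKO libraries above both WT ones (log2 fold change 2.09 ± 0.42, SE, edgeR adjusted p = 0.867). In cKO replicate 1, 1 cell held 123 of its 276 UMIs, and in cKO replicate 2, 1 cell held 39 of 55. Gpnmb, a glycoprotein of lipid-laden macrophages, had 0, 0, 52 and 8 UMIs in 8 cells (edgeR adjusted p = 0.154). Summed over both cKO libraries it was at 84.8 CPM, at least 15.06-fold higher than in WT, taking 3 UMIs over both WT libraries (5.63 CPM) as the floor. Mgst1, a microsomal glutathione transferase (58.3, 36.2, 146 and 124 CPM, log2 fold change 1.46 ± 0.35), Slamf7 (1.56 ± 0.42) and Tmem176b (1.73 ± 0.48) were next, each with an edgeR adjusted p of 1.00.

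In the other direction, Timp1, an inhibitor of matrix metalloproteases, was at 48.2, 116, 5.26 and 7.30 CPM (-3.54 ± 0.78, SE, edgeR adjusted p = 0.940), with UMIs in 9 cells and all 16 of WT replicate 2 in 1 cell. Mmp19, a metalloprotease, was at 112, 94.1, 21 and 43.8 CPM (-1.93 ± 0.43, edgeR adjusted p = 0.940). Il1a was at 106, 130, 29.8 and 58.4 CPM (-1.59 ± 0.41). Ccl6, a chemokine present in 91 of the 114 cells, was at 1189, 2918, 808 and 445 CPM (-1.67 ± 0.44), and Htra3, a secreted protease, at 60.8, 79.6, 22.8 and 7.30 CPM (-1.75 ± 0.52), the last 3 with an edgeR adjusted p of 1.00. Both cKO libraries lay below both WT ones for each of these 5. Over all genes tested, both cKO libraries lay above both WT ones in 498 genes (14.0%) and below in 597 (16.8%).

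**Figure D5:**
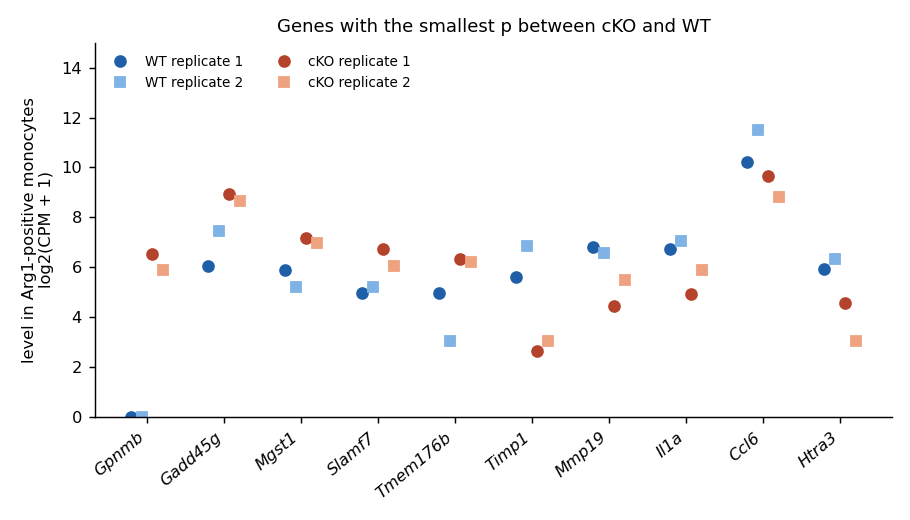
Level in Arg1-positive monocytes, as log2(CPM + 1), of the 10 genes with the smallest p between cKO and WT, with 1 point per library. Gadd45g and Gpnmb are higher in both cKO libraries and Timp1 and Ccl6 lower, and none passed the adjusted threshold of 0.05.

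None of the genes named with the label passed the genotype test. Arg1 itself was at 956, 963, 942 and 1145 CPM (log2 fold change 0.13 ± 0.25, SE, edgeR adjusted p = 1.00), a level that the threshold of 3 UMIs helps to set. Spp1 was at -0.02 ± 0.51, Ptgs2 at -0.10 ± 0.57, Thbs1 at -0.92 ± 0.63 and Cxcl3 at -1.37 ± 1.06. By list, the median log2 fold change was 0.20 over 22 hypoxia and glycolysis genes, 0.25 over 11 lipid-associated genes, 0.03 over 17 classical monocyte genes and -0.36 over 16 chemokines and inflammatory mediators, of which 13 were lower in cKO. Also lower in cKO were 10 of 13 matrix, clotting and growth factor genes, 11 of 14 myeloid inhibitory genes and 5 of 6 MHC class II genes. Over all 3547 genes the median was -0.01, with 1835 lower, and no gene of any list passed the test.

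The difference between the genotype effect in Arg1-positive and that in Arg1-negative cells was tested as an interaction over 9415 genes. edgeR called 8 (0.0850%). Gadd45g (1.86 ± 0.34, SE, edgeR adjusted p = 0.000427), Gpnmb, the chemokine Ccl24 (3.38 ± 0.79, adjusted p = 0.0258) and Apoe (1.02 ± 0.23, adjusted p = 0.0212) had the higher cKO over WT ratio in Arg1-positive cells. Ccl6 (-1.33 ± 0.25, edgeR adjusted p = 0.000819), the interferon-induced membrane protein Ifitm1 (-1.96 ± 0.44, adjusted p = 0.0212), Areg (-3.80 ± 0.89, adjusted p = 0.0258) and Timp1 (-3.31 ± 0.80, adjusted p = 0.0441) had the lower one. In Arg1-negative cells Gadd45g was at 169, 160, 219 and 178 CPM and Ccl6 at 1070, 813, 812 and 798 CPM, closer together than in Arg1-positive cells. In Arg1-positive cells the genotypes overlapped for Apoe (3014, 1513, 2721 and 4129 CPM) and Ifitm1 (48.2, 203, 52.6 and 21.9 CPM). For Ifitm1, 1 cell held 17 of the 28 UMIs of WT replicate 2. The small sums of the members varied more between libraries than the joint fit assumed, with a common dispersion of 0.0418 in Arg1-positive and 0.0165 in Arg1-negative sums. Limma with a weight for each population called 0 genes (smallest adjusted p 1.00), with 290 at an unadjusted p under 0.05. With 1 library left out edgeR called 8, 2, 29 and 3 genes, in the usual order. Without the shared barcodes it called 8, but Gadd45g (0.98, adjusted p = 1.00) and Timp1 were no longer among them. The effect of Ccl24, whose members held 8, 0, 43 and 0 UMIs, was -5.28 without cKO replicate 1, and that of Areg, with 30 of the 32 UMIs of WT replicate 1 in 1 cell, was 6.56 without WT replicate 1, so both directions rested on 1 library. Of the 8, Areg had UMIs in 5 members, Gpnmb in 8, Timp1 in 9, Ccl24 in 10 and Ifitm1 in 26.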

How the data were processed

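Each library came as a matrix of unnormalised UMI counts by gene and barcode in the deposited files, whose headers name Cell Ranger 6.1.1 (per the file headers). The submitters' processing notes also name CASAVA 1.8 and Seurat, and the genome build is not given in the sources used here. Barcodes had to show 300 or more genes and no more than 15% of UMIs from mitochondrial genes, and the monocyte rule was applied to these counts. Scrublet's automatic threshold marked no cell, so no doublets were removed, and leaving out the top-scoring cells (0.8% per 1000 cells) was an alternative. The members and gene lists were chosen with earlier results of these data known.

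UMIs were summed per library and population. Arg1-positive and Arg1-negative sums were compared as log2 ratios of CPM with 1 CPM added, without a test. Genotype and its interaction with population were tested with edgeR 4.0.16 (TMM scaling, filterByExpr, quasi-likelihood test, Benjamini-Hochberg adjustment, threshold 0.05), with DESeq2 1.42.0 and limma 3.58.1 as alternatives in R 4.3.3. Shares were compared by exact permutation (scipy 1.17.1). Member sums held 137071 to 570329 UMIs, which sets the precision.

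Named were the 15 genes with the largest and the 10 with the lowest mean ratio among genes at 50 CPM or more with the same direction in all 4 libraries, the 5 with the smallest p each way by genotype, the genes called by the interaction, the given markers, and each list's extremes with further members as examples. The genes of the interaction beyond the 3 with the smallest p each way were named after their values were seen. Symbols carried by more than 1 feature were left out of the named genes and of the counts at 20 CPM. The genotype medians have their own filter and include Aldoa, one such symbol, in the hypoxia list. Both edgeR fits were tested on simulated data with known changes before use. Of 200 genes changed 2-fold, the genotype fit called 16% and the interaction fit 1.5%. Of 200 changed 4-fold they called 98.5% and 76%. A lack of calls therefore does not show that 2-fold effects were absent. The changed genes were drawn from those above 50 CPM in the members. Every gene had the same dispersion, 0.0418, also in the simulated Arg1-negative sums, whose own was 0.0165. Genes at lower levels or with more spread between libraries were not simulated as changed, so these shares do not cover them. The alternatives changed the Arg1 threshold, cell filter, doublets, depth, C1q limit, pseudocount, level filter, scaling, tool, replicate block and libraries used. Promoters are RefSeq's, of build GRCm38.p6. Some members of the classical monocyte and macrophage maturation lists are counted but not reported singly here.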

Additional observations from a re-analysis of the deposited data

Results flagged for a closer look

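In 4 of 29 groups of 4 libraries that were checked, 1 library lay apart from the other 3 by Dixon's test at the 95% level. Chance gives this in about 1 of 20 groups that were not chosen by their values. The 4 genes concerned were named for their extreme ratios, so this rate cannot be set against them. The log2 ratio of Mmp12, Arg1-positive over Arg1-negative, was 1.49 in WT replicate 2, the lowest of the 4, where 2 member cells held a UMI of it. The ratio of Ero1l was 2.98 in cKO replicate 2, the highest of the 4. The ratios of Slpi and AI839979 were -8.41 and -5.82 in WT replicate 2, where the 14 members held no UMI of either.

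For 8 genes the genotype effect differed between Arg1-positive and Arg1-negative monocytes in edgeR's interaction test. On the log2 scale the effect in Arg1-positive cells less that in Arg1-negative cells was 1.86 for Gadd45g, 9.82 for Gpnmb, 3.38 for Ccl24, 1.02 for Apoe, -1.33 for Ccl6, -1.96 for Ifitm1, -3.80 for Areg and -3.31 for Timp1. The value for Gpnmb depends on the prior count, since the WT members held no UMI of it. The effect of Ccl24 turned to -5.28 without cKO replicate 1 and that of Areg to 6.56 without WT replicate 1. The 12 and 14 cells of the replicates 2 move with these results, as does the loss of all 8 calls with weighted limma. So do the single cells that held most UMIs of Gadd45g, Gpnmb, Ifitm1, Areg and Timp1 in a library. The part of each in these results was not tested.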

How the results depend on the processing

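The number of genes at least 2-fold higher in all libraries was 31, and 27 to 32 under a higher Arg1 threshold, without doublets, a stricter cell filter, 5000 to 15000 UMIs, no C1q UMI, no S100a9 and no shared barcodes, of which 15 to 31 were among the 31. It was 11 with a pseudocount of 10 CPM, 19 at 50 CPM or more, 122 without both replicates 2 and 46 to 68 without 1 library. The number lower was 164, with 298 at 5 or more Arg1 UMIs, 14 with the larger pseudocount, 11 at 50 CPM or more, 262 without C1q UMIs, 435 without both replicates 2 and 241 to 497 without 1 library. Hypoxia and glycolysis genes higher in every library numbered 15 to 21 of 21, and lipid-associated genes 7 to 10 except for 5 at the higher Arg1 threshold. The share difference ranged from -1.17 to 4.38 points of monocytes and from -0.193 to 0.287 points of all cells without 1 library, negative in 2 cases each (-0.0206 and -1.17, -0.146 and -0.193). For genotype, 0 genes passed with edgeR, and 9 without a filter on low counts and 2 to 27 without 1 library. Same-numbered libraries did not deviate together over genes (correlation of deviations from the group means -0.0066 over 3547 genes). The Arg1-positive shares and the neutrophil markers of Arg1-negative cells did split by number, and whether a number marks a batch was not tested. The replicate block gave 5 calls (Timp1, Gpnmb, Mmp19, Ccl6 and Gadd45g) and the crossed pairing 0. The interaction's 8 calls became 14 at the higher Arg1 threshold, 0 with limma and 2 to 29 without 1 library. The mean ratio of Thbs1 turned to -0.0068 without doublets, -0.034 with no C1q UMI, -0.073 without shared barcodes, and lay between -0.36 and 0.43 without 1 library (also -0.033 and -0.016). Ptgs2 was at -0.25 without both replicates 2, and without 1 library the interaction effect ran from -4.46 to 6.56 for Areg (positive without WT replicate 1) and from -5.28 to 9.64 for Ccl24 (negative without cKO replicate 1). The cause of these changes was not tested. With 12 to 49 members a library, genes carried by few cells are the least well measured.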
